A study of Homo sapiens with 12 samples.

Results

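The 10 genes described here are a set chosen by name as melanocyte lineage and pigment genes: MITF, SOX10, PMEL, MLANA, TYR, TYRP1, DCT, GPNMB, TRPM1 and RAB27A. All 10 were found among the 26475 genes of the deposited table, and the rule that lists them uses names and no measured value. The choice was made with earlier results of these data known. RNA was sequenced from A375, an established human melanoma line with mutant BRAF, after 24 h in 4 groups of 3 libraries each. The groups received DMSO, the solvent control, or 1 µM XL413, or 1 µM GSK343, or both compounds together at 1 µM each. XL413 inhibits CDC7, a kinase that starts DNA replication, and GSK343 inhibits EZH2, the enzyme of Polycomb repressive complex 2 that methylates lysine 27 of histone H3. All groups are cultures of the same line, and the submitters describe the libraries of a group as biological replicates.

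In these cells SOX10, MITF, GPNMB and RAB27A were expressed and the genes of pigment synthesis were close to silent. GPNMB rose about 1.4-fold with GSK343, alone and together with XL413. MITF was 0.873-fold as high with XL413 as without it, and SOX10 was 0.894-fold as high with GSK343 as without it. In the main analysis the MITF and SOX10 differences passed the test only when 6 libraries with a compound were set against 6 without it, and that of SOX10 was lost in several refits described below. RAB27A, PMEL and TYRP1 passed no test, and TYR had no count in any library.

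Melanocytes make pigment inside melanosomes, organelles related to lysosomes. MITF, a transcription factor of the basic helix-loop-helix leucine zipper class, is the main regulator of the lineage, and SOX10, a neural crest factor, activates MITF and several pigment genes directly. MITF and its relatives TFEB, TFE3 and TFEC bind short E-box sequences, and the extended form found before pigment genes is called the M-box. In melanoma, loss of the pigment programme accompanies states known as undifferentiated or invasive.

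The promoters of some members hold such sequences and are shown here as a description. RefSeq promoter windows on GRCh38.p14, each 300 bases from 250 before to 50 after a start of transcription, were searched on both strands for TCATGTG, the core of the M-box, for CACGTG, the E-box bound by the whole MITF family, and for TGACGTCA, the cyclic AMP response element bound by CREB1. These motifs do not contain each other. Windows were given for 8 of the 10 members, 16 windows in all. TCATGTG stood in 4 of the 16 windows, each of another gene, against 1024 of 34943 windows of all genes (2.93%). As the M-box is known from the promoters of pigment genes, its count in these members was to be foreseen and is no test. CACGTG stood in 0 of the 16, against 7.23% of all windows, and TGACGTCA in 1, a window of MITF, against 1.84%. Each stretch below is 30 bases written 5′ to 3′ on the strand that reads the motif as spelled, with the motif in capitals.
TYR, chr11:89177759-89177788, plus strand: agaaaagtcagTCATGTGcttttcagagga
TYRP1, chr9:12693229-12693258, plus strand: ttggaagggaaTCATGTGctgatcaagtcc
DCT, chr13:94479799-94479828, minus strand: tgcactttgggTCATGTGctaatgatgagg
DCT, chr13:94479879-94479908, plus strand: ctttatctgggcTCATGTGctccagccaaa
GPNMB, chr7:23246641-23246670, minus strand: acctcttacaacTCATGTGcttatgactca
GPNMB, chr7:23246702-23246731, minus strand: cctcggggaggaTCATGTGatggtattaag
MITF, chr3:69936429-69936458, plus strand: gaaaaaaagcaTGACGTCAagccaggggga

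The motif begins 105 bases before the start of TYR, 145 before that of TYRP1, and 135 and 215 before that of DCT. In GPNMB it lies 123 and 62 bases before the start, both times on the strand opposite to the gene. The MITF stretch lies 152 bases before the start of the short form used in melanocytes. In GENCODE 29 the TYR and GPNMB stretches overlap an annotated exon of the same gene, from transcripts that start further upstream, and the TYRP1, DCT and MITF stretches overlap no exon. Genes with the same letters differed in level: GPNMB had at least 1528 counts in every library, whereas TYR, TYRP1 and DCT had between 0 and 17.

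**Figure D1:**
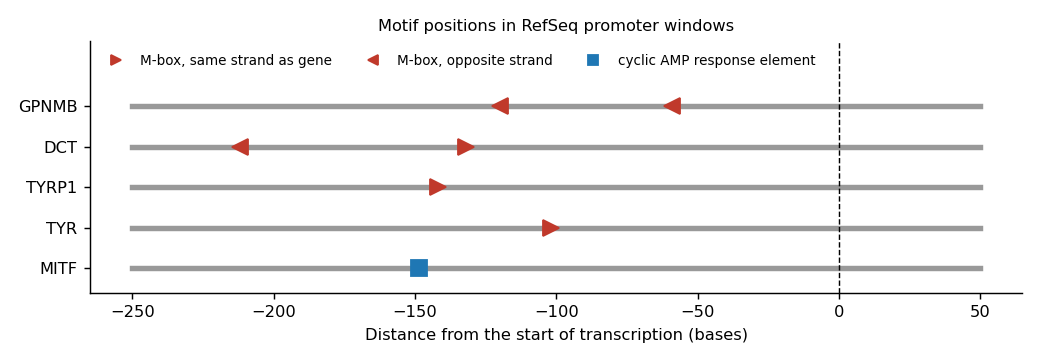
Positions of the searched motifs in 1 RefSeq promoter window of each of 5 genes. The x axis is the distance in bases from the start of transcription, grey bars are the windows, red triangles the M-box core pointing along the strand that reads it, and the blue square the cyclic AMP response element of MITF. All 7 motifs lie between 62 and 215 bases before the start.

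The libraries held 31553205 to 39079931 expected counts each. Of the 26475 genes, 15443 passed the filter on low counts and were tested. The replicate 2 library of the combination stood apart: across 12364 genes, the log2 differences between it and its 2 fellow replicates had an SD of 0.277, against 0.134 to 0.178 in the other 11, so calls of the members that change without it are given both ways. These differences followed transcript length, with a Spearman correlation of −0.641 in that library. In the other 11 it ran from −0.448 (GSK343 replicate 1) to 0.566 (the combination's replicate 3). Other cell types were checked by marker lists. Of 8 leukocyte markers, TYROBP was at 0 in all 12 libraries, CD3E and PTPRC had at most 3 counts, and the summed level was 49.8 to 53.3 CPM (read counts scaled to a common library size) with DMSO, 52.6 to 54.0 with XL413, 53.5 to 55.5 with GSK343 and 56.1 to 59.7 with both, nearly all from CD68. Of 7 keratinocyte markers KRT1 was at 0, and the sum was 76.5 to 96.9, 99.9 to 106, 65.3 to 85.7 and 92.9 to 121 CPM in the same order, most of it KRT10. The 8 fibroblast markers summed to 220 to 278, 240 to 285, 159 to 242 and 221 to 236 CPM, led by COL1A1, and all 8 were tested. The 7 Schwann cell markers, of which PMP22 was the highest, summed to 195 to 197, 198 to 201, 197 to 201 and 204 to 223 CPM. In the effects averaged over both backgrounds, GSK343 had 0 of 4 tested keratinocyte, 1 of 8 fibroblast, 0 of 4 leukocyte and 1 of 6 Schwann cell markers called, and XL413 had 1, 0, 2 and 1, all of them higher. Of all tested genes 6.55% were called for GSK343 and 9.12% for XL413. The marker counts were unstable when single libraries were left out: for GSK343 they ranged from 0 to 1, 0 to 2, 0 to 0 and 0 to 1 in the same order, and for XL413 from 0 to 1, 0 to 1, 1 to 2 and 0 to 2. The 1 fibroblast marker called higher with GSK343 was called in none of the leave-outs. Without GSK343 replicate 1, 2 fibroblast markers were called lower with GSK343, and 1 keratinocyte marker was called lower with it without the combination's replicate 2. Without the combination's replicate 1, 1 Schwann cell marker was called lower with GSK343, and 1 with XL413. The part of these markers in the results below was not tested. In bulk RNA, fewer cells that express a gene and less RNA per cell cannot be told apart.

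Levels of different genes were compared per kilobase of the longest annotated transcript, in CPM per kilobase with DMSO (n = 3, mean and SD). SOX10 was the highest at 120 ± 6.46, a level above 96.1% of 14970 tested genes with a known length. GPNMB stood at 16.5 ± 0.44, above 72.9% of genes, and MITF at 9.10 ± 0.165, above 60.0%. RAB27A reached 2.25 ± 0.242, in the lower part of the distribution at 33.7%. These 4 genes followed each other without overlap between libraries: SOX10 was 7.27 times as high as GPNMB per kilobase, GPNMB 1.81 times as high as MITF, and MITF 4.04 times as high as RAB27A.

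PMEL, which forms the fibrils of the early melanosome, stood far lower at 0.192 ± 0.0142 CPM per kilobase, above 8.06% of genes, with RAB27A 11.7 times as high. TYRP1 followed at 0.0841 ± 0.0481, MLANA at 0.0375 ± 0.0331, DCT at 0.0178 ± 0.00611 and TRPM1 at 0.00836 ± 0.00586. Between TYRP1 and MLANA, MLANA and DCT, and DCT and TRPM1 the libraries of neighbours overlapped, so the order of these 4 is not resolved by their spread. TYR, at 0, was last. With the mean length of the coding transcripts in place of the longest the order was the same, and the ratio of SOX10 to MITF moved from 13.2 to 8.71.

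**Figure D2:**
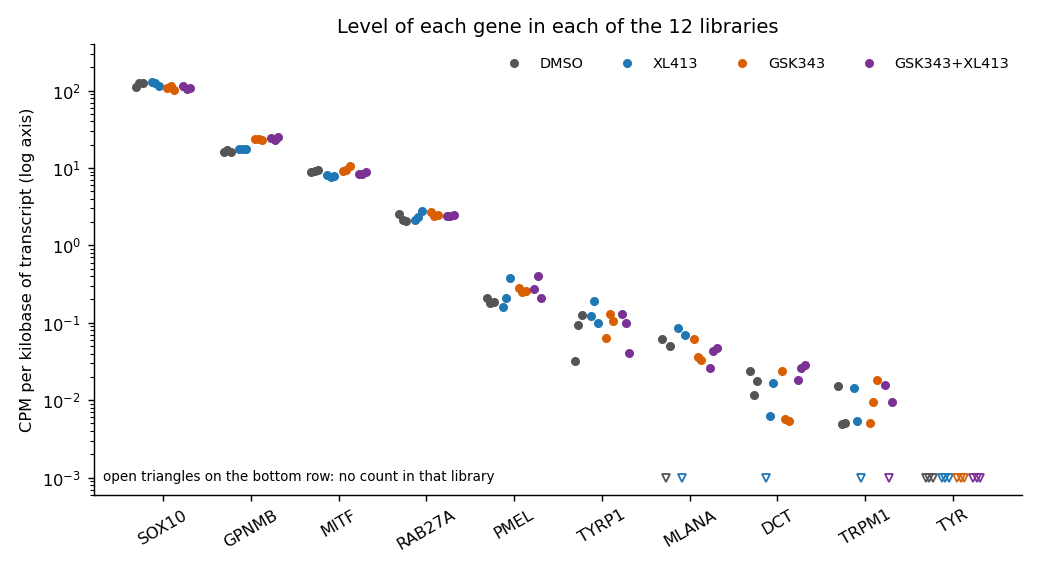
Level of each of the 10 genes in each of the 12 libraries, in CPM per kilobase of the longest transcript on a log axis, coloured by group. SOX10 lies between 103 and 129 and TYR has no count in any library. Open triangles on the bottom row mark libraries without a count.

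SOX10 is on chromosome 22 at 37970686 to 37987422 (hg38, minus strand). Its level was 325, 356 and 359 CPM with DMSO and 370, 358 and 334 CPM with XL413. It was 314, 329 and 296 CPM with GSK343 and 327, 301 and 313 CPM with both compounds. The libraries with GSK343 were the lower ones, from 296 to 329 CPM against 325 to 370 CPM without it, and the ranges overlapped at the edge. Averaged over the backgrounds with and without XL413, the GSK343 effect was −0.16 ± 0.0385 (log2 fold change and SE, 95% interval −0.24 to −0.08), and SOX10 fell by this test (edgeR quasi-likelihood, adjusted p = 0.0277). Against DMSO alone the change with GSK343 was −0.15 ± 0.0544 (adjusted p = 0.227), and with the combination −0.15 ± 0.0544 (adjusted p = 0.0912), neither past the threshold of 0.05. The averaged call was lost when any 1 of 6 libraries was left out. Without DMSO replicate 2 or 3 the adjusted p was 0.0741 or 0.0705, without XL413 replicate 1 or 2 it was 0.0773 or 0.0653, and without GSK343 replicate 1 or 3 it was 0.062 or 0.0551. SOX10 showed no call for XL413, with an averaged effect of 0.02 ± 0.0385 (interval −0.07 to 0.10).

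MITF is on chromosome 3 at 69739435 to 69968337 (plus strand), and the counts sum all of its isoforms. With DMSO it was at 43.2, 43.5 and 44.7 CPM, and with XL413 at 39.6, 36.6 and 38.2 CPM. With GSK343 it was at 43.5, 45.7 and 50.5 CPM, and with both compounds at 39.7, 39.8 and 42.7 CPM. All 6 libraries with XL413 were below all 6 without it, on either background. The averaged XL413 effect was −0.20 ± 0.0405 (interval −0.28 to −0.11, adjusted p = 0.0129), and MITF fell by this test and in each of its 21 alternative fits, with adjusted p from 0.00129 to 0.0433. The separate contrasts gave nearly the same size with 3 libraries against 3, −0.20 ± 0.0576 for XL413 against DMSO (adjusted p = 0.151) and −0.19 ± 0.057 for the combination against GSK343 (adjusted p = 0.11). Refits of these separate contrasts went both ways. In a fit of the XL413 and DMSO libraries alone MITF passed (adjusted p = 0.0109), and in one of the combination and GSK343 libraries alone it did not (adjusted p = 0.389). With a correction for transcript length and GC content it passed in both (adjusted p = 0.0351 and 0.048), and with the replicate block added to that correction in neither (0.0542 and 0.0653). For GSK343 the averaged estimate for MITF was 0.09 ± 0.0405 (interval 0.00 to 0.18, adjusted p = 0.198), not called.

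GPNMB, which codes for a transmembrane glycoprotein of melanosomes and lysosomes related to PMEL, is on chromosome 7 at 23235967 to 23275108 (plus strand). With DMSO it was at 46.3, 48.5 and 46.5 CPM, and with XL413 at 50.5, 49.8 and 49.7 CPM. With GSK343 it was at 68.0, 67.3 and 66.5 CPM, and with both compounds at 70.5, 65.8 and 73.0 CPM. The lowest library with GSK343 was well above the highest without it, with no overlap on either background. GPNMB rose by 0.51 ± 0.0444 with GSK343 against DMSO (1.43-fold, interval of the log2 value 0.42 to 0.61, adjusted p = 0.000184). It rose by 0.57 ± 0.0444 with the combination against DMSO (1.48-fold, adjusted p = 3.08e-05) and by 0.48 ± 0.0443 with the combination against XL413 (1.39-fold, adjusted p = 0.000219). The averaged GSK343 effect was 0.50 ± 0.0314 (1.41-fold, adjusted p = 4.54e-06), and each of these 4 results kept its call in every alternative fit run on it. XL413 had an averaged estimate of 0.07 ± 0.0313 for GPNMB (adjusted p = 0.174), which passed only without the combination's replicate 2 (0.09, adjusted p = 0.0226).

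**Figure D3:**
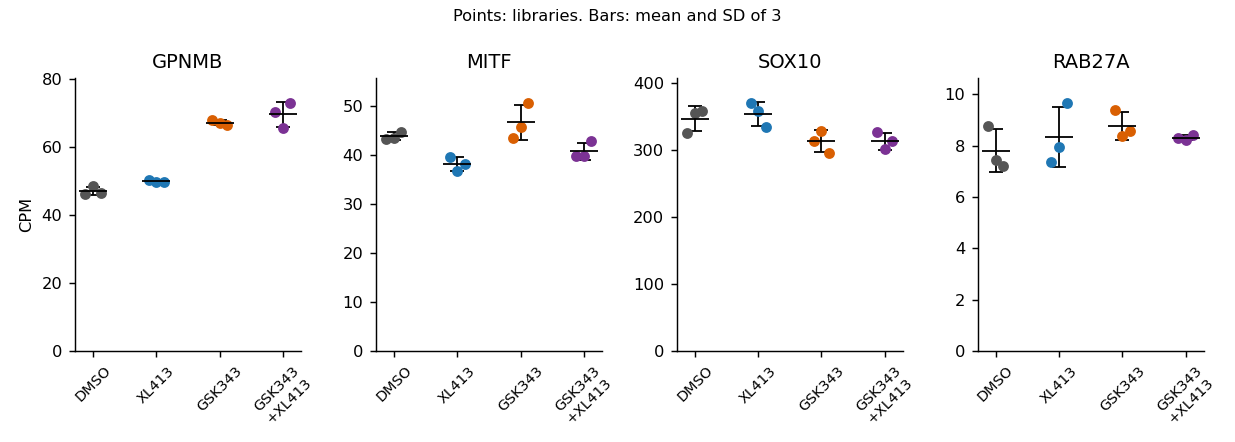
CPM of GPNMB, MITF, SOX10 and RAB27A in each library (points) with the mean and SD of 3 (bars) for the 4 groups, on axes that start at 0. GPNMB sits between 65.8 and 73.0 in the 6 libraries with GSK343 and between 46.3 and 50.5 in the 6 without it, and RAB27A overlaps between all groups.

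RAB27A codes for the small GTPase that ties melanosomes to the actin motor at the cell edge, and many secretory cells express it. It lies on chromosome 15 at 55202966 to 55319113 (minus strand). Its level was 8.75, 7.44 and 7.20 CPM with DMSO, 7.38, 7.95 and 9.65 with XL413, 9.37, 8.37 and 8.55 with GSK343, and 8.28, 8.22 and 8.42 with both. The ranges of all 4 groups overlapped. Estimates ranged from −0.17 for the interaction to 0.17 for GSK343 against DMSO, and none was called (adjusted p from 0.514 to 0.989). The averaged effects had intervals of −0.08 to 0.24 for GSK343 and −0.15 to 0.17 for XL413.

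PMEL (chromosome 12, 55954105 to 55973317, minus strand) had 15 to 43 counts a library. It was at 0.575, 0.504 and 0.512 CPM with DMSO and 0.437, 0.577 and 1.04 CPM with XL413. With GSK343 it was at 0.786, 0.690 and 0.701 CPM, and with both compounds at 0.744, 1.12 and 0.573 CPM. The 3 GSK343 libraries were above the 3 DMSO libraries, but single libraries at 1.04 and 1.12 CPM set the means of the groups with XL413. No PMEL contrast was called (adjusted p from 0.224 to 0.989), and the averaged GSK343 estimate of 0.35 ± 0.231 had an interval of −0.15 to 0.84. Without XL413 replicate 3 the estimate for XL413 against DMSO turned from 0.38 to −0.07, and without the combination's replicate 2 the estimate for the combination against XL413 turned from 0.24 to −0.07.

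The melanosomal enzymes were at or near 0. TYR, tyrosinase, the first and rate-limiting enzyme of pigment synthesis (chromosome 11, 89177452 to 89295759), had 0 counts in all 12 libraries, whose total of 411701316 counts allows a level of up to 0.00729 CPM over all libraries and of 0.0778 to 0.0962 CPM in 1 library, counting error only. TYRP1, a stabilising partner of tyrosinase (chromosome 9, 12685439 to 12710290), had 3, 9 and 12 counts with DMSO, 12, 17 and 10 with XL413, 6, 13 and 11 with GSK343, and 12, 11 and 4 with both. These counts overlap in all groups, and no TYRP1 contrast was called (adjusted p from 0.58 to 0.989, averaged GSK343 interval −0.94 to 0.59). Over 102 of its 2851 exon bases TYRP1 overlaps LURAP1L-AS1 on the other strand, and the strand setting of the counting is not given in the sources used here. DCT, dopachrome tautomerase (chromosome 13, 94436808 to 94479682), had 9 counts with DMSO, 4 with XL413, 6 with GSK343 and 13 with both, each summed over 3 libraries.

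MLANA, a melanosomal membrane protein and melanoma antigen (chromosome 9, 5890802 to 5910606), had 9, 13, 11 and 10 counts summed over DMSO, XL413, GSK343 and the combination, with 2 libraries at 0. TRPM1, a cation channel gene that hosts a microRNA (chromosome 15, 31001061 to 31161273), had 5, 4, 7 and 5, also with 2 libraries at 0. DCT, MLANA, TRPM1 and TYR did not pass the filter on low counts. Without the filter the 3 with counts were fitted, and 0 of their contrasts were called (lowest unadjusted p 0.087, lowest adjusted p 0.512). A fall or a small change in these genes was not detectable at this depth. All 4 had at most 7 counts in every library, so no rise to the 15 to 43 counts of PMEL was seen.

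Of the 10 members 6 were tested, so the following counts do not cover the silent genes. For XL413 against DMSO 0 of 6 were called, where 0.427% of all tested genes were. For GSK343 against DMSO 1 of 6 was called, GPNMB, beside 1.17% of all genes, and for the combination against DMSO 1 of 6, again GPNMB, beside 13.9%. The combination against XL413 gave 1 of 6, GPNMB, beside 0.784%, and the combination against GSK343 gave 0 of 6 beside 0.984%. These comparisons share libraries and are not independent of each other. Without the combination's replicate 2 the members called in these 5 comparisons were as many, while the number of all genes called went from 66 to 756 for XL413 and from 180 to 958 for GSK343 against DMSO, and from 121 to 252 and from 152 to 243 for the combination against XL413 and against GSK343. In the averaged effects 2 of 6 were called for GSK343 (GPNMB higher, SOX10 lower) beside 6.55% of all genes, and 1 of 6 for XL413 (MITF, lower) beside 9.12%. The median averaged effect over the 6 was 0.087 for GSK343 and 0.042 for XL413, while the median over all tested genes was within 0.01 of 0 for both. With 6 genes, 1 or 2 calls set the share, and members split between rise and fall.

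The interaction asks whether the effect of GSK343 differs in the presence of XL413. It was called for 0 of 6 members beside 0% of all 15443 genes in edgeR, where 413 genes had an unadjusted p under 0.05, and DESeq2 called 2 genes, none of them a member. The estimate for GPNMB was −0.03 ± 0.0626 with an interval of −0.17 to 0.10. For MITF it was 0.01 ± 0.081 (−0.17 to 0.18), and for SOX10 −0.03 ± 0.077 (−0.19 to 0.14). The intervals for PMEL, −1.20 to 0.79, and TYRP1, −2.37 to 0.68, are wide and do not limit an interaction of the size of the effects above. The interval for RAB27A was −0.49 to 0.15. It and the intervals of GPNMB, MITF and SOX10 all hold values as large as the averaged GSK343 effect on SOX10, −0.16.

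**Figure D4:**
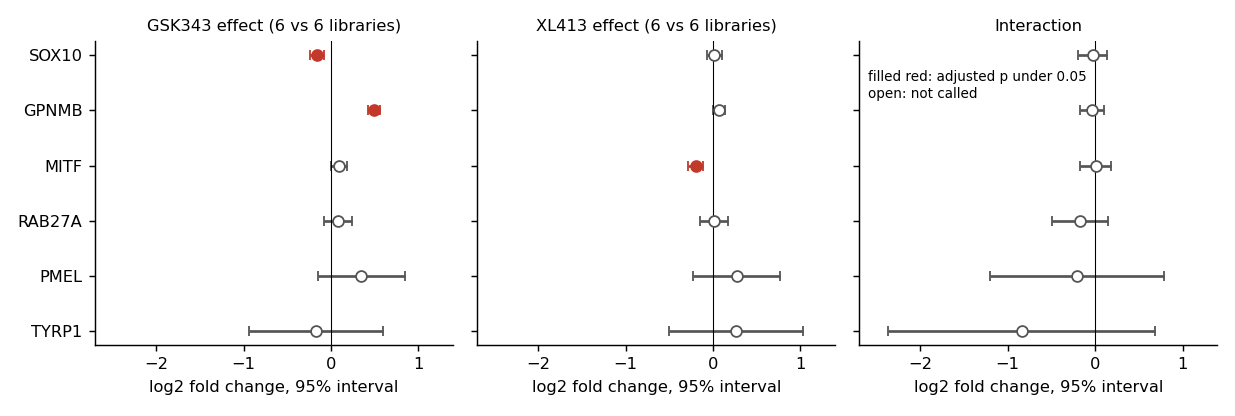
Log2 fold change with its 95% interval for the 6 tested members, ordered by level, for the averaged effect of GSK343, that of XL413, and their interaction. Filled red points passed an adjusted p of 0.05: GPNMB (0.50) and SOX10 (−0.16) for GSK343 and MITF (−0.20) for XL413. The intervals widen toward PMEL and TYRP1.

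The genes whose log2 CPM followed each called member most closely over the 12 libraries were taken by Pearson's r among 15442 other genes, as a description. Nearest to GPNMB were PTGES, a prostaglandin E synthase (r = 0.988), and CD55, a complement regulator (0.982). Their mean levels with DMSO and with GSK343 were 7.72 and 14.2 CPM for PTGES and 69.1 and 89.5 for CD55. Nearest to MITF were PDP2 (0.957), EIF4B (0.931) and PDE4D, a cyclic AMP phosphodiesterase (0.931), the last at 13.6 CPM with DMSO and 10.8 with XL413. Nearest to SOX10 were MAP3K11 (0.963), DNM2 (0.957) and TMEM184B (0.949), and MAP3K11 was at 123 CPM with DMSO and 108 with GSK343. The points share libraries and group differences, and leaving out the combination's replicate 2 gave r of 0.928 to 0.987 for these genes.

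A set of 6 lists of related genes, chosen by name with earlier results of these data known, places the members in their pathway. The same averaged effects are used, with the backgrounds of 6.55% for GSK343 and 9.12% for XL413 given above. The effects and adjusted p given for these genes are the averaged ones unless another contrast is named. Mean CPM ± SD follow the order DMSO, XL413, GSK343 and both compounds. Against DMSO alone, the genes of the 6 lists called were AXL and TGFBI with XL413, and SQSTM1, WIPI1 and TGFBI with GSK343, so the other single-compound steps from DMSO did not pass. Of 16 lineage signalling and transcription factor genes 14 were tested. XL413 lowered 2 of them and raised 0 (list median −0.10): SOX9, a neural crest factor, was at 10.1 ± 0.985, 8.17 ± 0.129, 10.2 ± 1.21 and 7.89 ± 0.195 CPM (−0.34, adjusted p = 0.0109), and ZEB2 at 22.9 ± 0.663, 20.0 ± 0.906, 24.7 ± 1.41 and 20.5 ± 1.97 CPM (−0.23, adjusted p = 0.0162). For XL413 against DMSO their adjusted p was 0.173 and 0.244. For GSK343 1 was called higher and 0 lower (median −0.01), KITLG, the ligand of KIT (0.21, adjusted p = 0.0496), named after its value was seen. POU3F2 and CREB1 were not called in either averaged effect but fell with the combination against DMSO (−0.22, adjusted p = 0.0229, and −0.21, adjusted p = 0.0292). KIT and IRF4 had at most 6 counts a library and were not tested.

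Of 26 genes of melanosome biogenesis and cargo 24 were tested. With GSK343 2 were higher and 1 lower (median 0.07). LYST, which regulates the size of lysosome-related organelles, was at 19.6 ± 0.877, 20.4 ± 0.670, 27.7 ± 1.92 and 23.1 ± 5.11 CPM (0.34, adjusted p = 0.0356), with a wide spread in the combination. RAB38, a GTPase that carries tyrosinase and TYRP1 to melanosomes, was at 14.6 ± 0.783, 16 ± 0.346, 17.7 ± 0.941 and 16.9 ± 0.864 CPM (0.18, adjusted p = 0.0329). AP3D1, a subunit of the AP-3 adaptor of the same route, was at 173 ± 2.44, 164 ± 5.37, 159 ± 2.70 and 149 ± 9.94 CPM (−0.13, adjusted p = 0.0341). APOE had 2.09 ± 0.143 CPM with DMSO and 3.10 ± 0.447 with both compounds, a rise in that contrast (0.57, adjusted p = 0.0221). With XL413 HPS6 was higher (0.17, adjusted p = 0.0457) and HPS4 lower (−0.18, adjusted p = 0.0355), both named after their values were seen. SLC45A2 and SLC24A5, transporters of pigment cells, had at most 9 counts a library and were not tested, like the silent enzymes.

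Of 18 genes of RAB27A partners and melanosome transport 17 were tested, and MYRIP, with at most 11 counts, was not. GSK343 raised 3 and lowered 0 (median 0.08). RAB27B, the close paralog of RAB27A, was at 9.29 ± 0.527, 8.25 ± 0.441, 12.4 ± 1.48 and 10.4 ± 1.12 CPM (0.38, adjusted p = 0.00904), while RAB27A itself had an estimate of 0.08. The RAB27A effectors SYTL2 (0.18, adjusted p = 0.0273) and SYTL3 (0.48, adjusted p = 0.0329) were the other 2. SYTL3 was low, with at most 48 counts a library, at 0.69 ± 0.0763, 1.02 ± 0.0537, 1.13 ± 0.0897 and 1.21 ± 0.0558 CPM. XL413 lowered 2 and raised 0 (median −0.04): CHML, a Rab escort protein, was at 125 ± 2.86, 109 ± 4.82, 121 ± 8.60 and 102 ± 5.79 CPM (−0.22, adjusted p = 0.00792), and the effector SYTL5, named after its value was seen, had −0.15 (adjusted p = 0.0466).

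Of 17 other reported MITF targets 15 were tested, and BIRC7 and MBP were not. GSK343 raised 2 and lowered 1 (median −0.02). ASAH1, acid ceramidase, was at 31.9 ± 1.19, 32.2 ± 0.186, 35.8 ± 0.729 and 38.3 ± 0.533 CPM (0.21, adjusted p = 0.0015). RRAGD, a Rag GTPase of lysosomal nutrient sensing, was at 7.43 ± 0.922, 7.56 ± 0.838, 9.33 ± 0.688 and 10.1 ± 0.582 CPM (0.37, adjusted p = 0.0116), and the formin DIAPH1 at 335 ± 6.80, 312 ± 13.3, 304 ± 15.6 and 277 ± 26.1 CPM (−0.16, adjusted p = 0.048). XL413, with which MITF fell, lowered 1, SEMA6A (−0.31, adjusted p = 0.0478, named after its value was seen), and raised 1, CDK2 (0.10, adjusted p = 0.0285), with a list median of 0.00. The call of SEMA6A was lost with the length and GC correction and when any 1 DMSO or GSK343 library was left out. That of CDK2 was lost when any 1 DMSO library was left out.

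All 22 genes of the MiT/TFE factors and their lysosomal targets were tested. GSK343 raised 5 and lowered 1 (median 0.04). SQSTM1, the autophagy receptor p62, was at 595 ± 6.12, 585 ± 10.1, 801 ± 49.8 and 842 ± 50.2 CPM (0.48, adjusted p = 6.59e-06). FLCN, folliculin (0.24, adjusted p = 0.00413), WIPI1, an autophagy protein (0.35, adjusted p = 0.0048), RRAGD, and NEU1, a lysosomal sialidase (0.17, adjusted p = 0.0448, named after its value was seen), were the others. TFE3, a relative of MITF, was lower with GSK343 (−0.11, adjusted p = 0.0303) and with XL413 (−0.11, adjusted p = 0.0277), and is named after its values were seen. Its call with GSK343 was lost with the length and GC correction, and both of its calls were lost without DMSO replicate 1 or 2. Other leave-outs that lost the GSK343 call included GSK343 replicate 1 and the combination's replicate 1. Those that lost the XL413 call included GSK343 replicates 2 and 3. XL413 raised 3 and lowered TFE3 (median 0.05): GLA, a lysosomal galactosidase, was at 34.3 ± 0.766, 38.6 ± 0.948, 33.1 ± 1.59 and 38.7 ± 1.39 CPM (0.20, adjusted p = 0.00583), and HEXA (0.18, adjusted p = 0.00795) and ATP6V1H (0.14, adjusted p = 0.0199) were named after their values were seen. The share called with GSK343 was 27.3% of this list, beside 6.55% of all genes. It was 20.0% of other MITF targets, 18.8% of the undifferentiated state and 17.6% of RAB27A partners. For melanosome genes it was 12.5%, and for lineage genes 7.14%. Because the list was drawn up with earlier results of these data known, these shares are a description and not a test of the list.

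Of 16 genes of the undifferentiated melanoma state all were tested. GSK343 raised 2 and lowered 1 (median −0.05), and XL413 raised 1 and lowered 2 (median 0.00). AXL, a receptor tyrosine kinase of that state, was at 478 ± 7.94, 367 ± 17.9, 430 ± 29.9 and 342 ± 3.58 CPM and fell with XL413 (−0.36, adjusted p = 0.00015) and with GSK343 (−0.13, adjusted p = 0.046). The AXL call with GSK343 was lost with the length and GC correction. Leave-outs that lost it included DMSO replicates 1, 2 and 3, GSK343 replicates 1 and 2, and the combination's replicate 1. TGFBI, a matrix protein, rose with XL413 (0.22, adjusted p = 0.00127) and with GSK343 (0.17, adjusted p = 0.0048). DKK1, a WNT inhibitor, rose with GSK343 (0.19, adjusted p = 0.0114) and fell with XL413 (−0.15, adjusted p = 0.0297). FOSL1 was not called in either averaged effect, but with the combination it fell against DMSO, from 341 ± 12.6 to 304 ± 13.6 CPM (−0.17, adjusted p = 0.0241). AXL and MITF both fell with XL413, and the list moved in both directions.

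**Figure D5:**
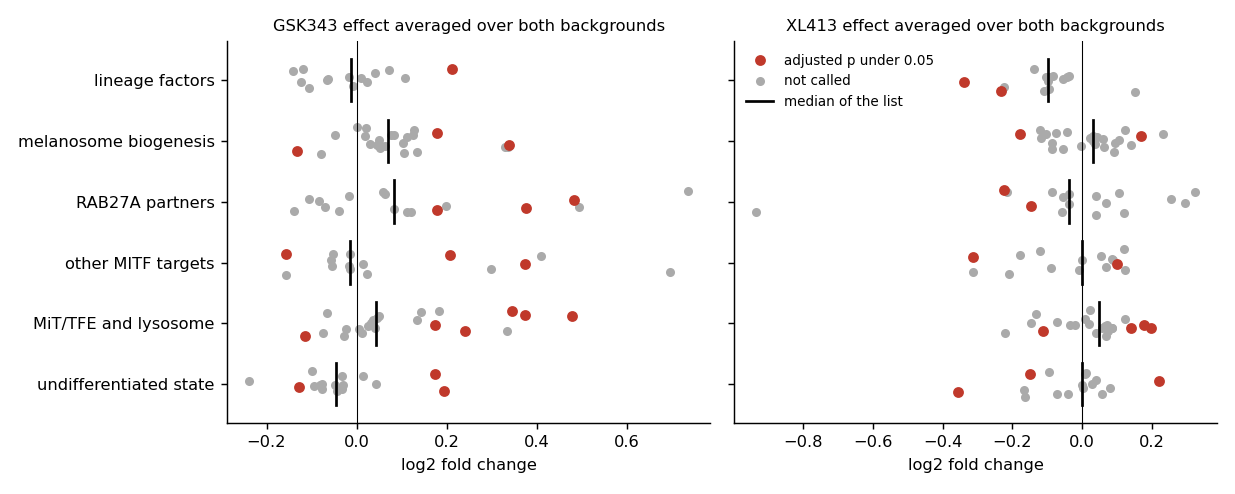
Averaged log2 fold change of every tested gene of the 6 related lists (points), for GSK343 on the left and XL413 on the right, with red points past an adjusted p of 0.05 and a black line at each list's median. Medians lie between −0.05 and 0.08 for GSK343 and between −0.10 and 0.05 for XL413, and called genes stand on both sides of 0 in most lists.

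Counts of called genes in these lists moved when single libraries were left out. For the MiT/TFE list and GSK343 the count of 6 became 4 to 9, and for the undifferentiated list 3 became 2 to 5. For the RAB27A list 3 became 1 to 4, for the melanosome list 3 became 0 to 3, for the lineage list 1 became 0 to 3, and for other MITF targets 3 became 2 to 3. For XL413 the ranges were 2 to 6 for MiT/TFE, 2 to 5 for the undifferentiated state, 1 to 4 for RAB27A partners, 0 to 4 for melanosome genes, 2 to 4 for lineage genes and 0 to 1 for other MITF targets. The highest count came without the combination's replicate 2 in all 12 cases, in some of them together with other libraries, and without that library the number of called genes overall also went from 1012 to 2009 for GSK343 and from 1408 to 2145 for XL413.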

How the data were processed

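RNA-seq of 12 A375 libraries was analysed from 1 deposited table of RSEM expected counts per gene, made by the authors. Per the submitters' processing notes, RSEM 1.2.15, Bowtie2 2.1.0 and the build hg38 were used. Libraries were poly-A selected and strand-specific per the labels' protocols. Neither the annotation nor the strand setting is stated by those notes or the labels (not given in the sources used here). Reads shared by several genes are divided between them by RSEM, on which values of paralogs and overlapping genes depend.

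Expected counts were rounded and fitted in R 4.3.3 with edgeR 4.0.16: filterByExpr (minimum count 10, minimum total 15), TMM, 1 quasi-likelihood model of 4 groups with 8 residual degrees of freedom, two-sided tests, and Benjamini-Hochberg adjustment over 15443 genes. Calls required an adjusted p under 0.05. The averaged effect of a compound is the mean of its effects with and without the other compound, and the interaction is the difference. CPM are counts scaled by the effective library size. SE is the log2 fold change over the root of F. P-values measure the spread between these libraries.

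Lengths and positions came from GENCODE 29 (23872 genes matched by name, 729 through an older symbol, 1874 not matched), promoters from RefSeq. The members, lists and tests were chosen with earlier results of these data known. Named genes are all members, up to 4 genes with the smallest p of each list among those called, and the 3 genes most correlated with each called member, of which 1, like 1 marker gene, is not reported here. Other genes are said to be named after their values were seen. Alternatives were RLE and upper quartile scaling, no filter, a filter of 5 CPM in 3 libraries, DESeq2 1.42.0, limma-voom (limma 3.58.1), a correction for transcript length and GC content (mgcv 1.9.3), the replicate number as a block, both together, only the groups compared, and leaving out each library.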

Additional observations from a re-analysis of the deposited data

How the results depend on the processing

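The calls of GPNMB with GSK343 and of MITF with XL413 (averaged) held in every alternative run on them, and that of SOX10 in 14 of 21, so the SOX10 result is the weakest of the 3. For XL413 against DMSO the count of members called was 0 and became 1 (MITF) with the length and GC correction and with only the groups compared. For the combination against GSK343 it became 1 (MITF) with the length and GC correction. For the averaged GSK343 effect it went from 2 to 1 under the replicate block with the length and GC correction, where SOX10 had −0.12 (adjusted p = 0.0659), and was 1 to 2 when single libraries were left out. For the averaged XL413 effect it was 1 to 2 when single libraries were left out. The replicate block alone changed no call of a member, and no pairing by number was seen. Deviations of same-numbered libraries correlated at over 0.1 in 4 of 18 pairs (−0.415 to 0.34, against −0.332 to 0.313 for other pairs). Of 12 libraries, 3 correlated best with their own number. These deviations also followed transcript length, so the check cannot exclude a pairing.

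Of 1021 refits of 48 estimates, 49 turned the sign of 16 estimates, and 0 of these were called. RAB27A in the combination against XL413 became 0.0168 with upper quartile scaling and 0.002 with limma-voom. SOX10 in the combination against GSK343, 0.0016 at first, became −0.0015 with RLE and with DESeq2, −0.0017 without a filter, −0.0201 with the length and GC correction, −0.0207 when the replicate block was added to it, and −0.0005 with only the groups compared. The MITF interaction became −0.0019 with RLE, −0.0029 without a filter, −0.0055 with the stricter filter and −0.0021 with DESeq2. Leaving out single libraries gave for XL413 against DMSO −0.0141 to 0.0702 for SOX10, −0.0691 to 0.627 for PMEL and −0.025 to 0.188 for RAB27A. It gave −0.14 to 0.66 for TYRP1 with GSK343 and −0.29 to 0.50 with the combination against DMSO. For the combination against XL413 it gave −0.0737 to 0.688 for PMEL and −0.0987 to 0.117 for RAB27A, and against GSK343 −0.0472 to 0.0302 for SOX10, −0.14 to 0.36 for PMEL and −0.50 to 0.18 for TYRP1. For averaged XL413 it gave −0.0063 to 0.0358 for SOX10 and −0.0509 to 0.0555 for RAB27A, and for averaged GSK343 −0.365 to 0.0289 for TYRP1. For the interaction it gave −0.0461 to 0.0514 for MITF, −0.084 to 0.0157 for SOX10 and −0.53 to 0.24 for PMEL. The cause was not tested.

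The number of all genes called ranged over the alternatives from 448 to 2009 around 1012 for averaged GSK343, 523 to 2307 around 1408 for averaged XL413, 37 to 958 around 180 for GSK343 against DMSO, 16 to 1394 around 66 for XL413 against DMSO, 657 to 2767 around 2152 for the combination against DMSO, 18 to 309 around 121 for it against XL413, and 0 to 608 around 152 for it against GSK343. PMEL and TYRP1 have no value under the stricter filter. Counts under about 50 a library limit PMEL and TYRP1, and those under 10 leave DCT, MLANA and TRPM1 without a usable test.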
